A study of Vitis vinifera with 4 samples.

Results

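The regions described here are 1143 of the 8389 NAC61 binding events placed on the 19 chromosomes of grapevine (Vitis vinifera), 13.6%, out of 8558 events deposited in all. They were chosen by 2 values of the list itself, the −log10 p of an event against the control and the number of HALO-NAC61 reads assigned to it. The −log10 p divided by the reads is here called the ratio. An event was kept where it was at least 0.15, so the kept events, or high-ratio events, reached a small p for the reads they held. Reads, p, q and the ratio are therefore given as a description only, and no test was made on them. The list gives no control reads for an event.

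The study used DAP-seq, in which a transcription factor made outside the plant is mixed with naked genomic DNA and the DNA it retains is sequenced. NAC61 fused to a HALO tag was made by in vitro translation in rabbit reticulocyte lysate (2 replicates), and a GST-HALO protein served as control (2 replicates). Both were mixed with genomic DNA that had been taken from pooled young leaves of the cultivar ‘Syrah’, so chromatin, other plant proteins and the state of the berry play no part in these values. One list was deposited for all 4 libraries together, with no value per replicate, so no replicate error can be attached to any event, and the intervals given below cover counting error only.

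NAC proteins are a plant-specific family of transcription factors that bind DNA as dimers through a conserved N-terminal domain. Their sites usually hold a CGT core followed by G or A, or its complement. Members of the family are known for roles in senescence, fruit ripening and responses to drought and salt.

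Sequences came with the events through a gene table of the study, of which a shortened copy, sorted by gene annotation, was at hand. The copy holds 1857 of the chromosomal events, 264 of them high-ratio events (14.2%), and names for some of them a short sequence, or k-mer, that the event caller had learned from this same list. The strand of a k-mer is not given. The k-mers below were picked, with their counts known, to show the main cores, a long form and the form without CGT. Capitals mark the core by which they are grouped here, and the types are named by the bases before CGT in the core.
TG type, 8 bases: gtTGCGTG
TG type, 9 bases: ttTGCGTGt
TG type, 11 bases: gatTGCGTGtt
AG type, with most events: tAGCGTGt
AG type, without the last base: atAGCGTG
GG type: tGGCGTGt
GA type: tGACGTGt
GN type, N standing for any base: tGNCGTGt
TG type ending in A: gatTGCGTA
type without CGT: attGCTTGt

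A k-mer was named for 109 of the 264 listed high-ratio events (41.3%, 95% Wilson interval 35.5 to 47.3) and for 632 of the 1593 other listed events (39.7%, 37.3 to 42.1). These intervals overlapped. The kinds of k-mer were unequally filled. Of 49 listed events with an AGCGTG core, 12 were high-ratio events (24.5%, 14.6 to 38.1). Its forms differed, with 7 of 28 for tAGCGTGt, 4 of 10 for atAGCGTG, 1 of 2 for atAGCGTGtaa and 0 of 9 for atAGCGTGt. Of 310 events with a TGCGTG core, 51 were high-ratio events (16.5%, 12.7 to 21.0). The GACGTG core had 17 of 117 (14.5%) and the GGCGTG core 12 of 81 (14.8%), both close to the 14.2% of all listed events, as were GNCGTG with 6 of 41 (14.6%) and k-mers that end in TGCGT with 4 of 28 (14.3%). The TGCGTA core, which ends in A in place of G, had 5 of 66 (7.58%, 3.28 to 16.5), but above 89.2 reads, the median of all chromosomal events, it had 5 of 26 (19.2%, 8.51 to 37.9), close to the 20.9% of all listed events there.

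The k-mer without CGT, attGCTTGt, was the most frequent k-mer of the listed events, yet 2 of its 49 events had a high ratio (4.08%, 1.13 to 13.7). Its events also had fewer reads, with a median of 76, against 95.4 for the AGCGTG core and 88 for the TGCGTG core. Above 89.2 reads it kept 1 of 14 (7.14%, 1.27 to 31.5), against 11 of 29 for AGCGTG (37.9%, 22.7 to 56.0) and 193 of 925 for all listed events (20.9%, 18.4 to 23.6). The k-mers of 10 or 11 bases had 21 of 85 (24.7%, 16.8 to 34.8), those of 9 bases 30 of 259 (11.6%, 8.24 to 16.1) and shorter ones 58 of 397 (14.6%, 11.5 to 18.4). Above 89.2 reads the k-mers of 10 or 11 bases had 19 of 53 (35.8%, 24.3 to 49.3), against the 20.9% of all listed events there. Their median reads were higher there too, 134 against 112.1. The 11-base form gatTGCGTGtt occurred at 4 listed events, 3 of them with a high ratio. The forms most like it, gctTGCGTGtt, ggtTGCGTGtt and gttTGCGTGtt, occurred at 2 each, none with a high ratio. Of the remaining 11-base forms, atAGCGTGtaa and atTGCGTGtaa had 1 of 2 each and the rest none. Since the caller took the k-mers from this list, and long k-mers came with more reads (median 106), these shares describe the list and were not tested.

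High-ratio events held 41.6 to 640 reads with a median of 117, and the other chromosomal events held 37 to 2511 reads with a median of 87. Their −log10 p had a median of 21.6, against 6.62 in the other events, and their ratio ran up to 0.303 with a median of 0.178, against 0.0791. Both gaps follow from the rule. Many high-ratio events lay close to the limit: 596 had a ratio below 0.18, 278 from 0.18 to 0.20, 196 from 0.20 to 0.25, 45 from 0.25 to 0.30 and 28 of at least 0.30.

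**Figure D1:**
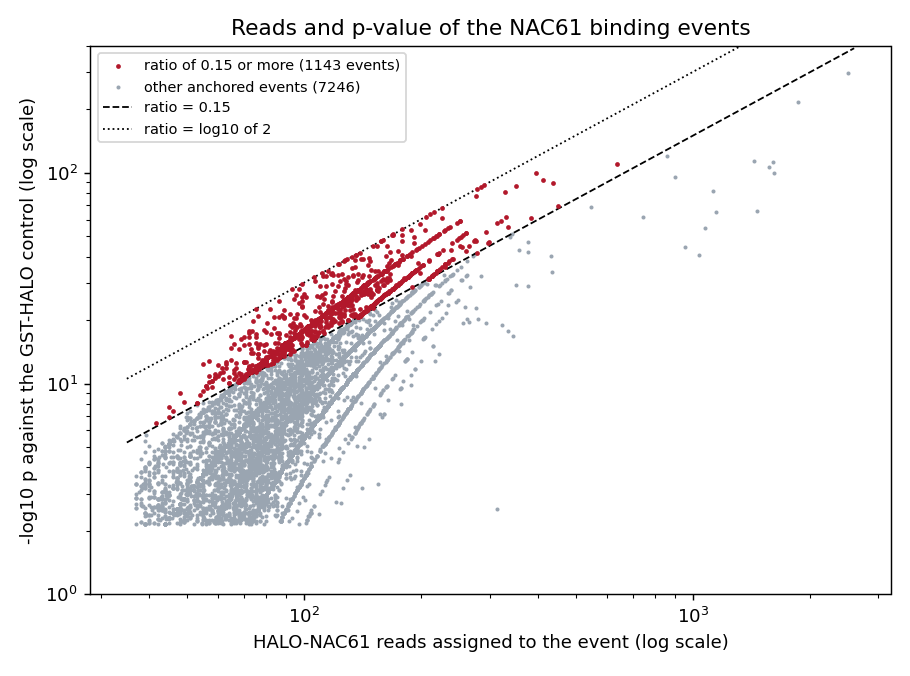
HALO-NAC61 reads of each of the 8389 chromosomal events (x axis, log scale) against −log10 p over the GST-HALO control (y axis, log scale), with the 1143 high-ratio events in red and the other 7246 in grey. The dashed line is a ratio of 0.15 and the dotted line a ratio of log10 2 (0.301), on which the upper edge of the events lies, and curved strings of points show that many events shared the same steps of p.

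The ratio had an upper edge. No chromosomal event passed 0.303, and 25 events lay within 0.02 of their reads multiplied by log10 2 (0.301), at reads spread between 75 and 290 for the 28 events of 0.30 or more. Below that edge, p fell into steps for events of equal reads. The 25 events with exactly 137 reads had 7 different values of −log10 p. Of these events, 1 stood at 30.38, 2 at 27.61, 7 at 20.53 and 15 lower, so the limit of 0.15 fell between 2 steps and 3 of the 25 were kept. At 87 reads, the most common value, 7 of 116 events shared a −log10 p of 14.77 and were the ones kept, while 17 events shared 9.52 and 30 shared 6.1.

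Just inside the limit stood an event at chr12:20001215 (278 reads, −log10 p 41.72, ratio 0.150072), another at chr11:3262786 (92 reads, 13.81, ratio 0.150109) and one at chr7:3322834 (70 reads, 10.51, ratio 0.150143). Just outside, events at chr18:6466738, chr18:6996085 and chr19:20613535 all had 137 reads, a −log10 p of 20.53 and a ratio of 0.149854. Between 0.145 and 0.15 there were 139 events, and between 0.15 and 0.155 there were 129, so the limit divides a continuous range and no gap.

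The share of events with a high ratio was higher at more reads, up to 300 reads. It was 2.09% below 60 reads, 7.34% from 60 to 80, 10.9% from 80 to 100, 13.9% from 100 to 120 and 21.6% from 120 to 140. It reached 36.5% from 140 to 160 reads and 50.6% from 200 to 300 (83 of 164), and stood at 29.3% (12 of 41, 17.6 to 44.5) at 300 reads or more. Among the 600 events with the most reads, 243 had a high ratio, and among the 600 with the highest −log10 q, 480 did. These shares and counts rest on reads, p and q, and reads and p chose the events, so they are a description only.

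The 5 highest ratios lay between 0.301 and 0.303 at modest reads. All 5 lay at the upper edge near log10 2 (0.301), among the 28 events of 0.30 or more, so their order carries little meaning. First by value was the event at chr18:30990574 in the abscisic aldehyde oxidase gene AAO3, with 127.2 reads and a −log10 p of 38.53. It was followed by chr19:2790486 (169.2 reads, 51.18), chr18:10220733 (226.3 reads, 68.33), chr15:11996116 (93 reads, 28) and chr16:5411534 (75 reads, 22.58). The first 3 of these carried fractional reads and had another event within 309, 1062 and 364 bp.

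The 5 high-ratio events with the most reads were others. The event at chr2:16201103 had 640 reads, a −log10 p of 109.59 and a ratio of 0.171, and lay 7769 bp upstream of VIT_02s0033g01020, annotated as an anthraniloyl-CoA methanol transferase. At chr8:6653121 there were 451 reads (ratio 0.155), at chr7:4089309 there were 437 (0.206), at chr8:7240582 there were 411 (0.225) and at chr2:7297514 there were 396 (0.253). The event at chr8:7240582 lay 14048 bp upstream of the homeobox gene BLH1 (VIT_08s0105g00230). The highest read count of all chromosomal events, 2511, was not among the high-ratio events.

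High-ratio events were found on all 19 chromosomes. Their share of the events ran between 10.3% on chromosome 17 (41 of 397, 7.70 to 13.7) and 17.7% on chromosome 19 (61 of 344, 14.1 to 22.1), and 18 of the 19 intervals held the overall 13.6%, the exception being chromosome 19. At a minimum ratio of 0.18 its share was 7.85% (5.45 to 11.2) and the interval held the 6.52% of all events, so the exception was lost. Chromosome 16 was next, with 50 of 293 (17.1%, 13.2 to 21.8), and chromosome 6 stood low with 54 of 492 (10.98%, 8.51 to 14.05). Per length, measured between the outermost events, chromosome 8 had the most, 3.43 per Mb, and chromosome 12 the fewest, 1.57 per Mb. Chromosome 8 also had the most events of any kind per Mb, 26.5, and a share of 12.9%.

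**Figure D2:**
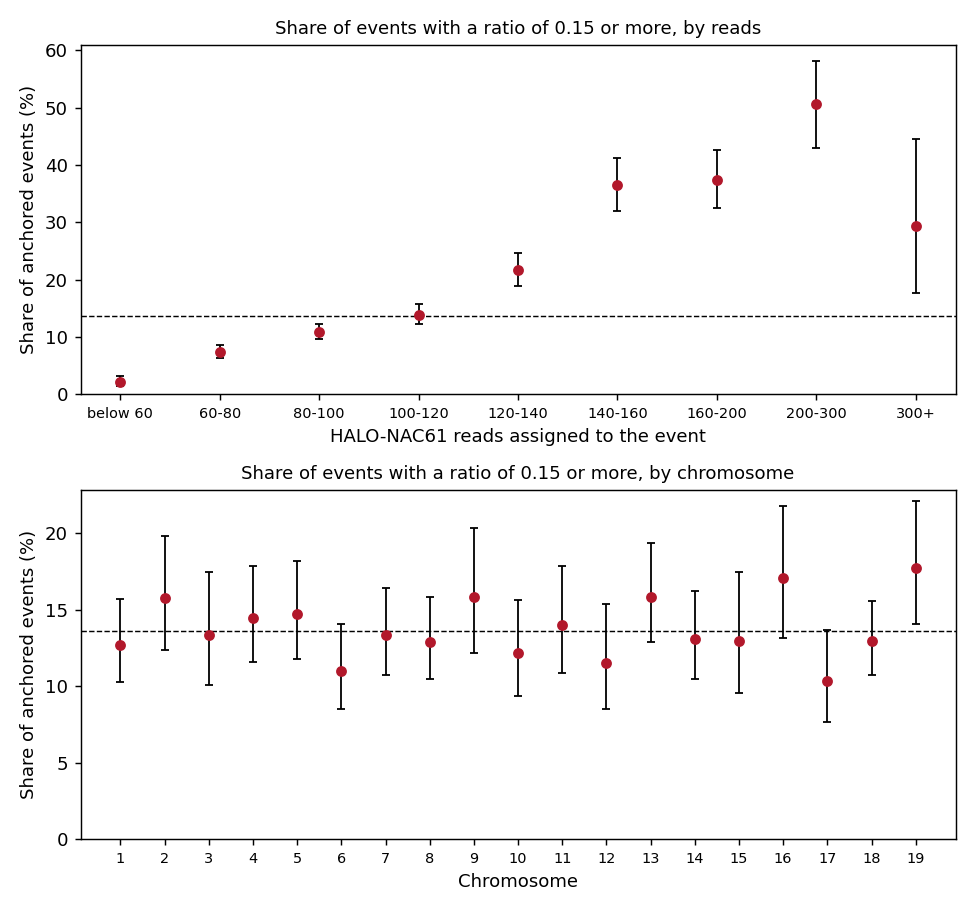
Percentage of chromosomal events with a ratio of at least 0.15, by HALO-NAC61 reads of the event (upper panel) and by chromosome (lower panel). Points are shares, bars 95% Wilson intervals for counting error, and the dashed line the overall 13.6%; the share reaches 50.6% at 200 to 300 reads, whereas by chromosome it stays between 10.3% and 17.7%.

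Successive high-ratio events lay a median of 220 kb apart, and the longest stretch without one was 5.08 Mb, on chromosome 15. In windows of 1 Mb, 79 of the 462 windows that held any event had no high-ratio event, the median window had 2 and 76 windows had 5 or more. The highest number was 9, reached in 4 windows. These were 1 to 2 Mb of chromosome 18 (9 of 25 events), 0 to 1 Mb of chromosome 4 (9 of 26), 7 to 8 Mb of chromosome 18 (9 of 42) and 3 to 4 Mb of chromosome 13 (9 of 44). The window at 8 to 9 Mb of chromosome 18, next to the window at 7 to 8 Mb, held 40 events and no high-ratio event, and 2 to 3 Mb of chromosome 3 held 31 and none. These windows were picked for their counts, so the counts carry no test.

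Spacing was not used in the choice. A median of 11515 bp separated a high-ratio event from the nearest event of any kind, against 12121 bp for the other events. Another event lay within 500 bp of 79 high-ratio events (6.91%, 5.58 to 8.53) and of 410 other events (5.66%, 5.15 to 6.21), so the intervals overlapped. Within 200 bp the shares were 19 of 1143 (1.66%, 1.07 to 2.58) and 59 of 7246 (0.814%, 0.632 to 1.05), and there the intervals did not overlap. They overlapped at 500, 1000, 2000 and 5000 bp. Close events count as neighbours of each other, which the intervals do not allow for, so the gap at 200 bp was not tested. Within 1000 bp the shares were 12.6% and 11.01%.

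Spacing was also set out by reads. Among events with over 114 reads 43 of 596 high-ratio events (7.21%, 5.40 to 9.58) and 65 of 1450 other events (4.48%, 3.53 to 5.67) had an event within 500 bp, with intervals that just overlapped. From 70 to 89.2 reads the shares were 9.62% (6.31 to 14.4) and 5.88% (4.89 to 7.04), and from 89.2 to 114 reads 4.56% and 4.30%. Among events of 70 reads or fewer the high-ratio events had the lower share, 4 of 76 (5.26%, 2.07 to 12.8) and 155 of 2056 (7.54%, 6.48 to 8.76). The intervals overlapped in all 4 ranges of reads, and the shares followed no simple order with reads. Reads were whole numbers for most lone events: 9.12% of the lone high-ratio events and 10.3% of the lone other events had a fraction. Where another event lay within 500 bp, 92.4% and 88.8% had one.

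The nearest event was itself a high-ratio event for 173 of 1143 high-ratio events (15.1%, 13.2 to 17.3) and for 993 of 7246 other events (13.7%, 12.9 to 14.5), close to the overall 13.6%. For events with a neighbour within 1000 bp, the neighbour had a high ratio in 30 of 144 cases (20.8%, 15.0 to 28.2) and in 116 of 798 (14.5%, 12.3 to 17.2). In 62 cases a high-ratio event had a neighbour within 500 bp that was not one. It held more reads than that neighbour in 54 of them, with medians of 126.85 and 72.4 reads. Reads were part of the rule, and high-ratio events held more of them in general (medians of 117 and 87). This count is therefore a description only.

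**Figure D3:**
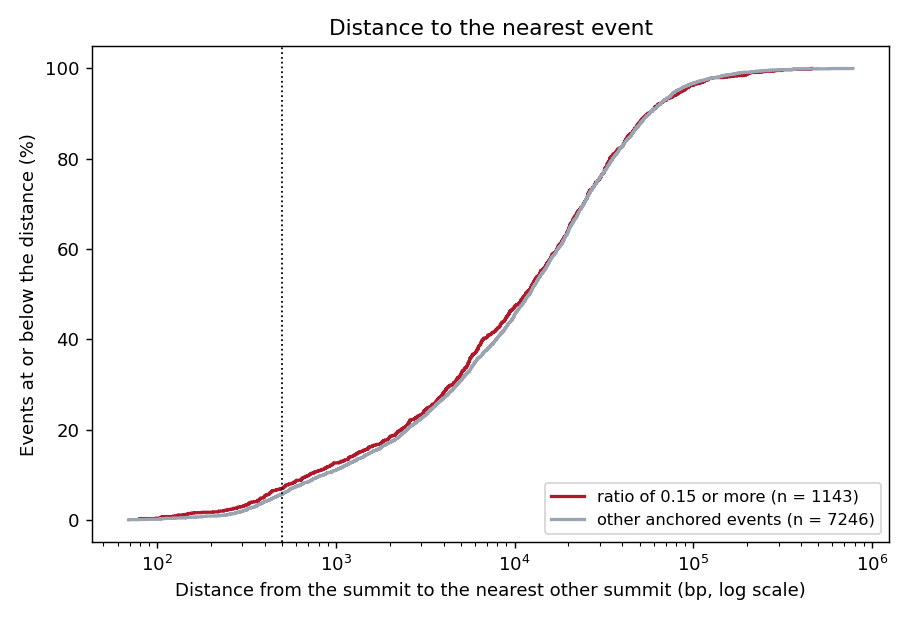
Cumulative percentage of events (y axis) by the distance to the nearest other summit in bp (x axis, log scale), for the 1143 high-ratio events in red and the other 7246 chromosomal events in grey. The curves nearly coincide, with medians of 11515 and 12121 bp, and at the dotted line at 500 bp they stand at 6.91% and 5.66%.

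Pairs of adjacent high-ratio events numbered 3 within 200 bp, 9 within 500 bp and 16 within 1000 bp. The closest pair, 79 bp apart on chromosome 11 (summits 10041216 and 10041295), held 127.2 and 178.8 reads with ratios of 0.193 and 0.228. The next, 106 bp apart on chromosome 7 (14308064 and 14308170), held 76.5 and 77.5 reads, just past the limit with 0.154 and 0.162. The third, 130 bp apart on chromosome 14 (6919747 and 6919877), held 127.3 and 153.7 reads. All 6 of these read values were fractional. The other extreme was an event at chr11:14242636 (86.3 reads), with no event within 459959 bp. The events at chr8:6653121 and chr19:15169923 were 453625 and 358204 bp from any other.

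The 264 listed high-ratio events were paired with 250 gene models of the PN40024 12X.v2 assembly. Distances are from the summit to the start of the gene model on its strand. Whether a summit inside a gene lay in an exon or an intron was not determined here. In the promoter, taken as 3000 bp upstream to 100 bp downstream of the start, lay 75 high-ratio events (28.4%, 23.3 to 34.1) and 460 of the other 1593 (28.9%, 26.7 to 31.2). From 1000 bp upstream to 100 bp downstream there were 51 (19.3%, 15.0 to 24.5) and 255 (16.01%, 14.3 to 17.9). Between 3000 and 1000 bp upstream there were 24 (9.09%, 6.19 to 13.2) and 205 (12.9%, 11.3 to 14.6). Inside the gene past its first 100 bp lay 80 (30.3%, 25.1 to 36.1) and 587 (36.8%, 34.5 to 39.2). Each of these pairs of intervals overlapped.

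The most filled stretch was the last 250 bp before the start, with 27 listed high-ratio events (10.2%, 7.12 to 14.5) and 100 other listed events (6.28%, 5.19 to 7.58). It was singled out after its counts were seen. Above 89.2 reads the shares there were 21 of 193 (10.9%, 7.23 to 16.1) and 44 of 732 (6.01%, 4.51 to 7.97), again with overlapping intervals. On the other side of the start, the first 250 bp held 14 (5.30%) and 70 (4.39%).

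**Figure D4:**
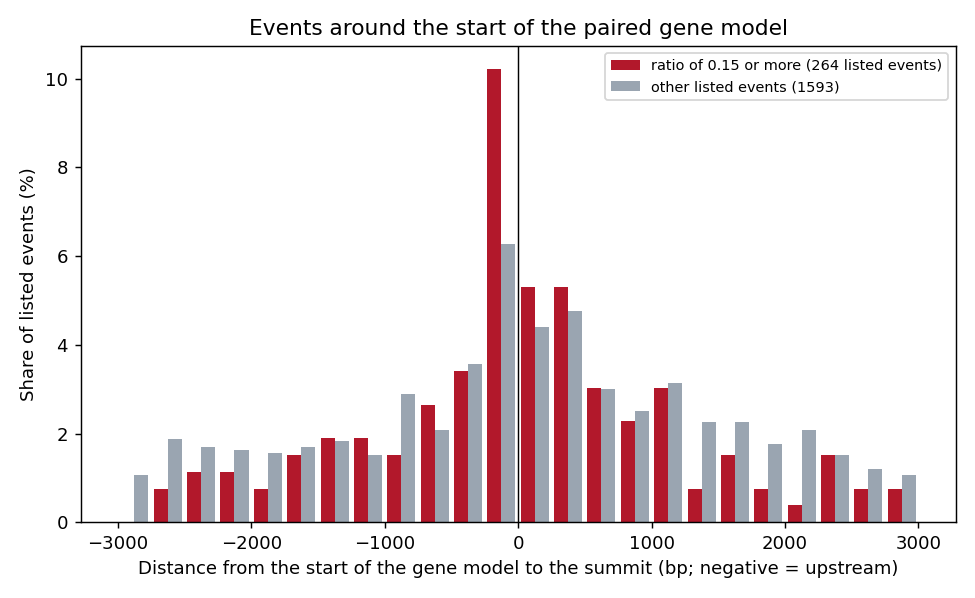
Percentage of listed events in bins of 250 bp (y axis) by distance from the start of the paired gene model in bp, upstream negative (x axis), for the 264 listed high-ratio events in red and the other 1593 in grey. The tallest bar is the last 250 bp before the start, with 10.2% of the high-ratio events and 6.28% of the others.

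Of the 5 highest ratios over all events, 1 was paired with a gene in the shortened table, so the order that follows holds within that table only. Ratios of 0.301 to 0.303 lay at the upper edge, so the order among them carries little meaning. AAO3 (VIT_18s0041g02430, chr18:30982874-30994018, minus strand) encodes an abscisic aldehyde oxidase, which in Arabidopsis makes abscisic acid, the hormone of drought and dormancy, from its aldehyde. It held 2 high-ratio events inside the gene, 599 bp apart. The one at chr18:30990574 had 127.2 reads and a ratio of 0.303, and the one at chr18:30989975 had 169 reads, the k-mer tAGCGTGt and a ratio of 0.301. A further event 309 bp from the first, with 59.8 reads and a ratio of 0.140, fell short of the limit. The nearby Aldehyde oxidase 1 (VIT_18s0041g02410) had 2 high-ratio events too, with 97 reads inside the gene and 72 reads 183 bp upstream of its start. Their ratios, 0.178 and 0.155, were near the limit.

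The other high ratios among listed genes were spread over unrelated functions. A mitochondrial carrier gene (VIT_15s0046g01290) had 123 reads and a ratio of 0.301 at a summit 4250 bp upstream, and a BAH domain gene (VIT_10s0116g00160), of a family of chromatin proteins, had 285 reads and 0.301 at 383 bp inside. Both events carried gatTGCGTGtt. The bZIP factor gene bZIP09 (VIT_04s0008g02750) had 179 reads and 0.301 at 241 bp inside. A surE-type nucleotidase (VIT_05s0020g03370) had 154 reads and 0.291 at 388 bp inside, and ATRAD3 (VIT_14s0036g01530) had 112.1 reads and 0.288 at 14 bp past its end. CTV.12 (VIT_13s0047g01240) had 86 reads and 0.286 at 142 bp upstream. Cell growth defect factor 1 (VIT_04s0023g02990) had 179 reads and 0.283 at 560 bp inside. An arginine-tRNA-protein transferase (VIT_03s0097g00060), an enzyme that marks proteins for degradation, had 81.9 reads and 0.276 at 207 bp upstream.

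In all, 13 of the 250 gene models were paired with 2 or more high-ratio events, 27 events together. Several of these events lay outside the gene. No matching count over all listed events is given here, so the number has no background. The only one with 3 was VIT_07s0141g00990, annotated as a calcineurin phosphoesterase, whose events of 146, 161 and 81 reads lay past the end of the gene at 5268, 17331 and 20416 bp from its start. ATP-binding cassette (ABC) transporters, which carry lipids, hormones and secondary metabolites across membranes, were there with WBC1 (VIT_18s0166g00080; 220 and 176 reads, 755 bp apart, beyond the gene end) and TAP3 (VIT_16s0100g00350; 152 reads 138 bp upstream and 116 reads inside). CLPX (VIT_12s0035g01860), a subunit of an organellar protease, held 176.1 and 88.9 reads 326 bp apart inside the gene. A glyoxysomal citrate synthase (VIT_12s0142g00610) had 122 reads 87 bp upstream of its start and 158 reads 849 bp inside.

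The autophagy gene ATG18d (VIT_14s0060g02380) had 252 reads (ratio 0.235) 799 bp inside its start and 78 reads (0.161) at 88 bp past its end. ATRAD3 had a second event of 99 reads (0.260) 9600 bp upstream, and the surE gene one of 104 reads (0.183) 4297 bp upstream. The RNA helicase DDX51 (VIT_10s0003g04000) had 127 reads 141 bp inside and 71.7 reads 15392 bp upstream. An SNF2 helicase (VIT_10s0116g01490), of the chromatin remodelling family, had 161 reads inside and 108 reads 12959 bp upstream. The DC1 domain gene (VIT_13s0019g01280) had 67.7 and 80 reads at 3707 and 6641 bp past its end. Their ratios were 0.151 and 0.166, just past the limit.

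Gene groups were formed by words of the annotation, and a gene may stand in more than one. The annotations of the high-ratio events in these groups began with a sign, a digit or a letter from A to D. The shares therefore describe the part of the gene table at hand and need not hold for whole gene families. Against 14.2% of all listed events, the share of high-ratio events was 34.5% for aldehyde and alcohol oxidoreductases (10 of 29, 19.9 to 52.7). Of the 13 groups, 2 had intervals wholly above 14.2%, this one and the phenylpropanoid, anthocyanin and terpene enzymes, whose lower bound was next to it (14 of 60, 23.3%, 14.4 to 35.4). Several of those 14 events were paired with anthranilate or anthraniloyl transferases, taken in by the words of their annotation. The name of the group therefore does not describe all of its genes. The oxidoreductases rested on 8 genes, since 4 of the 10 events belonged to the 2 aldehyde oxidases. The lowest share was 12.2% for transporters other than ABC (14 of 115). The groups were chosen with results of these data in view, and no enrichment was tested.

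**Figure D5:**
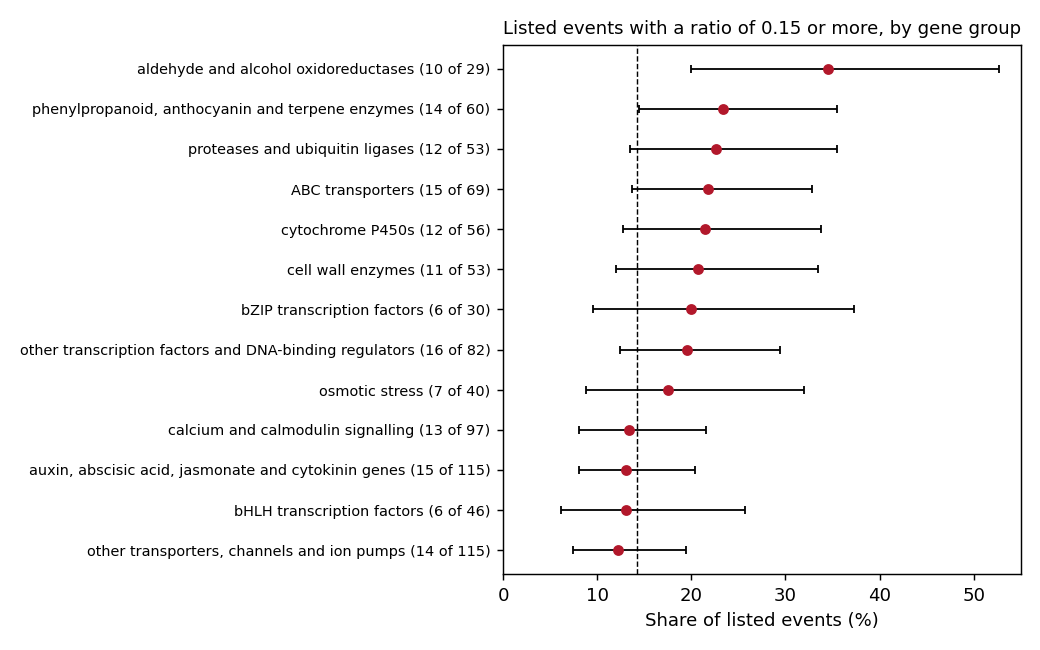
Percentage of listed events with a ratio of at least 0.15 (x axis) in 13 gene groups, with counts of high-ratio events of listed events in the labels. Points are shares, bars 95% Wilson intervals for counting error, and the dashed line the 14.2% of all listed events; the aldehyde and alcohol oxidoreductases stand highest at 34.5%, on 29 events.

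Among the oxidoreductases, betaine aldehyde dehydrogenase (VIT_17s0000g07670), which makes the osmoprotectant glycine betaine, had 144 reads and a ratio of 0.205 at 353 bp upstream of its start. An aldo/keto reductase (VIT_05s0062g00980) had 136.6 reads and 0.202 at 122 bp upstream, with another event 150 bp away. The aldehyde dehydrogenase ALDH3H1 (VIT_18s0001g02440) had 94 reads and 0.267 at 2188 bp upstream, and an alcohol dehydrogenase of class III (VIT_07s0005g04610) had 166 reads and 0.166 at 118 bp inside. Of the 10 events, 3 lay from 1000 bp upstream to 100 bp downstream of a gene start, those of betaine aldehyde dehydrogenase, the aldo/keto reductase and Aldehyde oxidase 1.

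Hormone genes had a high-ratio event at 15 of 115 listed events (13.0%, 8.07 to 20.4), close to the background. Of the 15, 5 lay at a gene start, where 19.3% of all listed high-ratio events lay. AOS (VIT_03s0063g01850), the allene oxide synthase of jasmonate synthesis, had 118 reads and a ratio of 0.192 at 75 bp upstream. An auxin-responsive SAUR gene (VIT_01s0146g00180) had 221 reads and 0.187 at 11 bp inside the start. A cis-zeatin glucosyltransferase (VIT_08s0007g08910), which stores cytokinin as a glucoside, had 89 reads and 0.159 at 36 bp inside. An auxin-responsive protein (VIT_12s0057g00460) had 73 reads and 0.156 at 695 bp upstream. ARF7 (VIT_08s0040g01810), annotated as an auxin response factor, had 209 reads and 0.151 at 780 bp upstream, barely past the limit.

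Other transcription factors and DNA-binding regulators had 16 of 82 (19.5%, 12.4 to 29.4), the bZIP family 6 of 30 (20.0%, 9.51 to 37.3) and the bHLH family 6 of 46 (13.0%, 6.12 to 25.7). At gene starts stood bZIP03 (VIT_02s0025g01020; 112.8 reads, ratio 0.222, 123 bp upstream) and a bromodomain gene (VIT_03s0097g00570; 127 reads, 0.245, 310 bp upstream). A dehydration responsive element-binding factor (VIT_18s0001g05890) had 113 reads and 0.188 at 23 bp inside its start. Factors with Constans names had less, with 90 reads and 0.172 at 363 bp upstream of VIT_13s0064g00570 and 86.5 reads and 0.154 at 541 bp upstream of VIT_17s0000g03740. HYH (VIT_05s0020g01090), a bZIP factor of light responses in Arabidopsis, had 320.8 reads and 0.185 at 1094 bp inside.

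Calcium and calmodulin genes, grouped by words of the annotation, had 13 of 97 (13.4%, 8.002 to 21.6), near the background. The 13 events rested on 11 genes, since the calcineurin phosphoesterase gene named above had several, all past its end. Events of the group at gene starts were of low or middling ratio. An endoplasmic reticulum calcium-transporting ATPase (VIT_06s0004g03900) had 175.5 reads and 0.171 at 642 bp upstream. Calcineurin B protein 10 (VIT_04s0008g00950) had 145 reads and 0.155 at 97 bp upstream. IQD21 (VIT_16s0098g01790) had 97 reads, an EF hand gene (VIT_15s0048g02260) had 91 reads and a calmodulin (VIT_01s0010g02930) had 83 reads, at 624, 191 and 226 bp upstream.

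ABC transporters had 15 of 69 (21.7%, 13.6 to 32.8) at 13 genes. Of the 15, only that of TAP3 lay at a gene start, and 4 lay 3 to 5 kb upstream. Of all listed high-ratio events, 19.3% and 7.95% lay there, and counts this small were not tested. Cytochrome P450 genes, oxidases of secondary metabolism and hormones, had 12 of 56 (21.4%, 12.7 to 33.8), of which CYP72A53v1 (VIT_13s0084g00070) had 91 reads and 0.173 at 58 bp upstream. Proteases and ubiquitin ligases had 12 of 53 (22.6%, 13.5 to 35.5). The aspartic protease AP32 (VIT_13s0019g01980) had 174 reads, tAGCGTGt and a ratio of 0.244 at 81 bp upstream, a cysteine proteinase (VIT_03s0038g00280) had 117 reads and 0.162 at 93 bp upstream, and AP7 (VIT_04s0008g07130) had 70 reads and 0.153 at 830 bp upstream.

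Cell wall enzymes had 11 of 53 (20.8%, 12.005 to 33.5), none at a gene start, with cellulose synthase CESA2 (VIT_18s0072g00370) at 201 reads and 0.224, 4026 bp upstream. Of the 14 events of phenylpropanoid, anthocyanin and terpene enzymes, 1 lay at a gene start, and the median of the group was 85.4 reads. That event belonged to anthocyanin membrane protein 1 (VIT_08s0007g03570), with 143 reads and 0.153 at 207 bp upstream. Beside the 19.3% of all listed high-ratio events at gene starts, the counts of both groups are small and were not tested. Osmotic stress genes had 7 of 40 (17.5%, 8.75 to 32.0). They included dehydrin 1 (VIT_03s0038g04390), a protein of dehydrating tissue, with 116 reads and 0.179 at 96 bp inside its start. For the group as a whole the reads ran between 104 and 180.6.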

How the data were processed

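For 4 libraries, 2 HALO-NAC61 and 2 GST-HALO, the authors sequenced DAP-seq DNA and trimmed the reads (fastp 0.21.0 per the submitters' processing notes), which were aligned with Bowtie2 to PN40024 12X.v2, reads of low mapping quality were removed, and events were called with GEM in replicate mode against the control. The control was sequenced less deeply. The deposited list gives for each event a signal (reads assigned, no normalization), a −log10 p-value and a −log10 q-value, none below 2. Its score column was deposited too and was not used here. Intervals are 201 bp, and summits are 1-based.

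From these, the ratio of −log10 p to reads, neighbour distances, shares and 95% Wilson intervals were computed (Python 3.11.15, pandas 2.3.3, statsmodels 0.14.6). Neighbours were sought among all chromosomal events. No test was possible without values per replicate. On a simulated list of 8250 events, all 500 planted neighbours and 1032 planted high-ratio events were recovered. Gene models came from a shortened supplementary table, used for gene identity, position, functional category and k-mers. No measured value was taken from it.

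The events, gene groups and lists were chosen with earlier results of these data known. Named were the 5 highest ratios, the 5 with most reads, the 3 closest pairs, the 3 most isolated events, 3 on each side of the limit, the 10 highest ratios among listed genes, genes with 2 or more events, and group members from 1000 bp upstream to 100 bp downstream of a gene start. HYH, ALDH3H1, CESA2 and the class III alcohol dehydrogenase were added after their values were seen, as were the last 250 bp before gene starts. Other limits of ratio, distance, reads and promoter were tried, as was the use of q.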

Additional observations from a re-analysis of the deposited data

Results flagged for a closer look

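Events on sequence not anchored to a chromosome were left out of all comparisons. Of 169 such events, 23 had a ratio of at least 0.15 (13.6%, 95% Wilson interval 9.24 to 19.6), the same share as the 13.6% of the chromosomal events. They are listed because they lie outside the comparisons, and the share sets them apart in no way.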

How the results depend on the processing

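The count of 1143 became 2215 at a minimum ratio of 0.12, 547 at 0.18 and 269 at 0.20. It was 929 with q in place of p, 1166 with unanchored sequence and 968 with at least 80 reads. The share of high-ratio events with a neighbour was 1.662%, 12.6% and 18.29% at 200, 1000 and 2000 bp, against 0.8142%, 11.01% and 17.15% of other events. Within 500 bp it was 5.263%, 9.615% and 4.563% for events of up to 70, 70 to 89.2 and 89.2 to 114 reads, and for other events 7.539%, 4.297% and 4.483% at up to 70, 89.2 to 114 and over 114 reads. At a minimum of 0.18, chromosome 19 had 7.849% (5.45 to 11.18) against 6.52% of all events, and the nearest event was a high-ratio event in 7.678%. That share was 17.89% for neighbours within 5000 bp at 0.15. Promoter events were 19.32% at 1000 bp upstream. Listed high-ratio events had a k-mer in 51.79% (39.0 to 64.3) at 89.2 to 114 reads, against 32.3% (28.1 to 36.9) of other events. These 2 intervals did not overlap, whereas those of the other ranges of reads did. The shares were 37.5% and 46.0% at up to 70 reads, 40% and 40.3% at 70 to 89.2, and 38.0% and 40.3% above 114. The cause of these shifts was not tested. Of 32 alternatives, 12 moved the value by less than its interval or 1.5 times and 20 by more.

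No paired analysis was possible because the list has no column per replicate, and for the same reason leaving out a replicate was not run. The list holds no control reads per event.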

Other observations

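The functional categories of the gene table gave shares near the 14.2% of all listed events. Like the gene groups, they cover only the part of the table at hand. High-ratio events made up 14 of 84 listed events for lipid metabolism (16.7%, 95% Wilson interval 10.2 to 26.1), 17 of 103 for secondary metabolism (16.5%, 10.6 to 24.9) and 20 of 122 for carbohydrate metabolism (16.4%, 10.9 to 24.0). Transport had 37 of 261 (14.2%, 10.5 to 18.9) and transcription factor activity 20 of 141 (14.2%, 9.37 to 20.9). The low end was formed by signal transduction with 12 of 114 (10.5%, 6.12 to 17.5), hormone response with 15 of 152 (9.87%, 6.07 to 15.6) and stress response with 3 of 39 (7.69%, 2.65 to 20.3). Each of these 8 intervals held 14.2%.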
